A study of Mus musculus with 2 samples.

Results

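The 9 genes described here are Hba-a1, Hba-a2, Hbb-bs, Hbb-bt, Alas2, Car2, Slc4a1, Klf1 and Ermap, taken by symbol from the 32285 features of a single-cell data set of mouse spleen. Gene expression was measured in dissociated spleen cells after lysis of the red cells, by droplet sequencing of transcript 3' ends in which unique molecular identifiers (UMIs) count each captured RNA molecule once. There was 1 library from a mouse carrying the M694I knock-in of the MEFV gene, with 9000 barcodes and 25193274 UMIs, and 1 library from an age-matched wild-type mouse, with 10449 barcodes and 32797052 UMIs. MEFV encodes pyrin, an inflammasome sensor, and the M694I substitution is known from familial Mediterranean fever; the sources used here name no strain, sex or exact age, and the mice were housed free of specific pathogens. With 1 library per genotype no difference can be tested, and genotype, mouse, cell preparation and library cannot be told apart; every interval below is a 95% interval for counting error only.

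The alpha-globin genes Hba-a1 and Hba-a2 and the beta-globin genes Hbb-bs and Hbb-bt encode the chains of adult mouse haemoglobin, the oxygen carrier of red cells. Alas2 encodes the erythroid form of the first enzyme of haem synthesis, Car2 encodes carbonic anhydrase 2, Slc4a1 encodes the band 3 anion exchanger of the red cell membrane, Klf1 encodes an erythroid transcription factor that binds CACCC elements, and Ermap encodes an erythroid membrane-associated protein. The mouse spleen makes red cells alongside the bone marrow, above all under stress, and its red pulp clears old ones. Mature mouse red cells have no nucleus, whereas reticulocytes still carry globin RNA and nucleated erythroid precursors carry the RNA of the whole programme.

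In the GENCODE annotation of GRCm38 all 9 are protein-coding. The alpha genes lie at chr11:32283511-32284465 (Hba-a1) and chr11:32296489-32297298 (Hba-a2) on the plus strand and the beta genes at chr7:103826534-103828096 (Hbb-bs) and chr7:103812524-103813996 (Hbb-bt) on the minus strand. Alas2 lies at chrX:150547375-150570638, Car2 at chr3:14886273-14900770, Slc4a1 at chr11:102348824-102366203, Klf1 at chr8:84901928-84905291 and Ermap at chr4:119175457-119190011.

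The globin genes come in near-identical pairs, which bears on every value given for a single one of them. Hba-a1 and Hba-a2 differ at 1 of 429 coding bases (C381T, Hba-a1 base first, counted from 1 at the first coding base), and Hbb-bs and Hbb-bt at 1 of 444 (C417T, Hbb-bs base first). The last 60 coding bases are shown because both differences fall there, close to the 3' end that the assay reads; the capital marks the differing base. They were read from GENCODE transcripts of GRCm38 at chr11:32284332-32284391 and chr11:32297149-32297208 on the plus strand for the alpha pair, and at chr7:103826665-103826724 and chr7:103812656-103812715 on the minus strand for the beta pair, each inside the last coding exon.
Hba-a1: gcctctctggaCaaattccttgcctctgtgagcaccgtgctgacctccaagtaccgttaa
Hba-a2: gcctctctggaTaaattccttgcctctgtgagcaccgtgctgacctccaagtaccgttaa
Hbb-bs: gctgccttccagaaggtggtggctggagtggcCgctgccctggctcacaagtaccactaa
Hbb-bt: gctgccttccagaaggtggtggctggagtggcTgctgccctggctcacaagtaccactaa
The 3' UTRs were less alike, with 82.2% identity in the alpha pair and 69.4% in the beta pair. Of all 90-base windows of the Hba-a2 transcript 77.2% also occurred in Hba-a1, and of those of Hbb-bt 55.5% occurred in Hbb-bs, so the split of UMIs within a pair is less certain than its sum. Within the last 300 bases, nearer the end that the assay reads, fewer were shared. There 105 of 211 Hba-a2 windows occurred in Hba-a1, and 51 of 211 Hbb-bt windows occurred in Hbb-bs. How reads shared by both copies were assigned is not given in the sources used here.

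Upstream sequence is shown for the 3 members that stand for globin chains, haem synthesis and transcription, from RefSeq promoters of GRCm38.p6, limited to bases before both the RefSeq and the GENCODE start. Capitals mark, on either strand, GATAA (a core bound by erythroid GATA factors), CACCC (a core bound by Klf1), CCAAT (a core bound by NF-Y) and TATAA (the core of the TATA box). The windows lie at chr11:32296372-32296488 (Hba-a2), chrX:150547297-150547374 (Alas2) and chr8:84901862-84901927 (Klf1), all on the plus strand.
Hba-a2: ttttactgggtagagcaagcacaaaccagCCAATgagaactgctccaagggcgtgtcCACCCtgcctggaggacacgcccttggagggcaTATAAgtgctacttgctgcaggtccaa
Alas2: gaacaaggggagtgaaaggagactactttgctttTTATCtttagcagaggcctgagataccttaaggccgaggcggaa
Klf1: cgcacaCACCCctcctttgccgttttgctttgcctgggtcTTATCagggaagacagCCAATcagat
RefSeq promoters were found for 7 of the 9 members. In the 120 bases before the RefSeq start, CACCC occurred in 7 of the 7 members against 31.7% of all 32851 promoters, CCAAT in 5 against 21.3%, TATAA in 5 against 11.8% and GATAA in 3 against 10.5%. The alpha pair shares nearly all of this window, with 117 identical bases, so the members are not independent, and a match is no evidence of binding.

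The haemoglobin genes were higher in the knock-in library, and nearly all of their UMIs came from a small number of barcodes. The 4 genes together had 63652 UMIs, or 2527 counts per 1000000 UMIs of the library (CPM), in the knock-in library and 18362 UMIs, or 560 CPM, in the wild-type library, a log2 ratio of 2.17 (2.15 to 2.20). Barcodes with over 50 haemoglobin UMIs, called haemoglobin-rich below, held 98.5% of these UMIs in the knock-in library and 96.7% in the wild-type library. A single barcode held 8317 of the knock-in UMIs (13.1%), and a single barcode held 10163 of the wild-type UMIs (55.3%). Without the top barcode of each library the log2 ratio was 3.14, and over the 8409 knock-in and 9511 wild-type cells that passed the quality limits, which leave out barcodes with under 200 genes, it was 3.84. The size of the ratio over all barcodes thus depends on that 1 wild-type barcode, and its direction does not.

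Each globin gene showed the same direction. Hbb-bs, the most abundant of the 4 by UMIs, had 33764 UMIs (1340 CPM) in the knock-in library and 9295 (283 CPM) in the wild-type library, with a log2 ratio of 2.24 (2.21 to 2.27). Hbb-bt had 9818 UMIs (390 CPM) in the knock-in library and 2493 (76.0 CPM) in the wild-type library, a log2 ratio of 2.36 (2.29 to 2.42). Hba-a1 had 11569 UMIs (459 CPM) in the knock-in library and 3558 (108 CPM) in the wild-type library, a log2 ratio of 2.08 (2.03 to 2.14). Hba-a2 had 8501 UMIs (337 CPM) in the knock-in library and 3016 (92.0 CPM) in the wild-type library, a log2 ratio of 1.88 (1.82 to 1.94).

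The other erythroid members differed more widely among themselves. Slc4a1 had 88 UMIs (3.49 CPM) in 19 knock-in barcodes and 5 UMIs (0.152 CPM) in 3 wild-type barcodes, a log2 ratio of 4.52 (3.24 to 6.18). Alas2 had 129 UMIs (5.12 CPM) in 30 knock-in barcodes and 45 UMIs (1.37 CPM) in 11 wild-type barcodes, a log2 ratio of 1.90 (1.40 to 2.42). Both genes were nearly confined to haemoglobin-rich barcodes, which held 96.1% of the knock-in and 95.6% of the wild-type Alas2 UMIs, and 97.7% of the knock-in and all 5 of the wild-type Slc4a1 UMIs.

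Klf1 and Ermap were detected at a few UMIs, and in the wild-type library only outside the haemoglobin-rich barcodes. Klf1 had 16 UMIs (0.635 CPM) in 10 knock-in barcodes and 3 UMIs (0.0915 CPM) in 3 wild-type barcodes, a log2 ratio of 2.80 (0.99 to 5.22). Ermap had 32 UMIs (1.27 CPM) in 19 knock-in barcodes and 15 UMIs (0.457 CPM) in 15 wild-type barcodes, a log2 ratio of 1.47 (0.55 to 2.46). Haemoglobin-rich barcodes held 11 of the 16 knock-in Klf1 UMIs and 23 of the 32 knock-in Ermap UMIs, and none of the wild-type UMIs of either gene. Outside these barcodes Ermap had 9 UMIs in the knock-in library and 15 in the wild-type library, a log2 ratio of -0.35 (-1.72 to 0.94). This interval includes 0, so no reversal is read from it. The direction of the Ermap ratio over all barcodes thus rests on the haemoglobin-rich barcodes.

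Car2 stood apart from the other members. It had 848 UMIs (33.7 CPM) in 437 knock-in barcodes and 707 UMIs (21.6 CPM) in 445 wild-type barcodes, a log2 ratio of 0.64 (0.50 to 0.79). Haemoglobin-rich barcodes held 24.9% of the knock-in and 2.69% of the wild-type Car2 UMIs. Outside these barcodes the Car2 log2 ratio was 0.27 (0.12 to 0.43). Of the other Car2 UMIs, cells named NK-like from their markers held 284 of 637 in the knock-in library and 378 of 688 in the wild-type library.

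Genes with at least 20 UMIs over both libraries were called higher or lower where the log2 ratio reached 1 in size. By this limit 7 of the 8 members with enough UMIs were higher in the knock-in library and 0 were lower, with a median log2 ratio of 1.99, against 2.81% of all 13440 genes called higher, 2.6% called lower and a median of -0.08. Klf1, with fewer UMIs, was not counted, and Car2 was below the limit. Because the members share the same few barcodes, the count describes 1 group of cells rather than 7 separate observations.

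**Figure D1:**
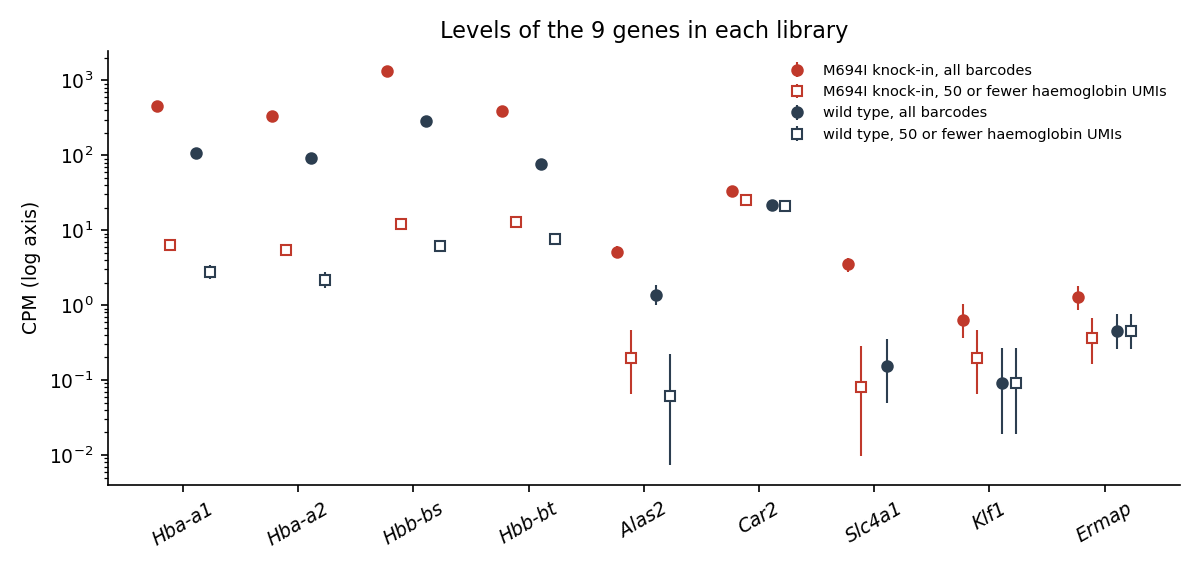
Level of each of the 9 genes in CPM (log axis) in the knock-in library (red, left) and the wild-type library (dark blue, right). Filled circles are all barcodes, open squares only barcodes with 50 haemoglobin UMIs or fewer, bars are exact Poisson 95% intervals for counting error, and a level of 0 (wild-type Slc4a1 in the second set) is not drawn. Between filled and open symbols the globin genes fall by more than 10-fold in both libraries, whereas wild-type Car2 barely moves.

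Haemoglobin-rich barcodes made up 30 of the 9000 knock-in barcodes (0.333%, 0.225 to 0.476) and 9 of the 10449 wild-type barcodes (0.0861%, 0.0394 to 0.163), a 3.87-fold difference in share (1.79 to 9.27, exact conditional interval). Their haemoglobin UMIs ran from 55 to 8317 with a median of 1474.5 in the knock-in library, and from 354 to 10163 with a median of 732 in the wild-type library. The limit of 50 fell at a thin place in the distribution: the lowest values above it were 55 and 67 in the knock-in library and 354 and 463 in the wild-type library, and the highest below it were 46 and 39 in the knock-in library and 41 and 29 in the wild-type library. No haemoglobin UMI was found in 95.7% of knock-in and 97.2% of wild-type barcodes. None of the 27 barcode sequences that occur in both libraries was haemoglobin-rich.

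**Figure D2:**
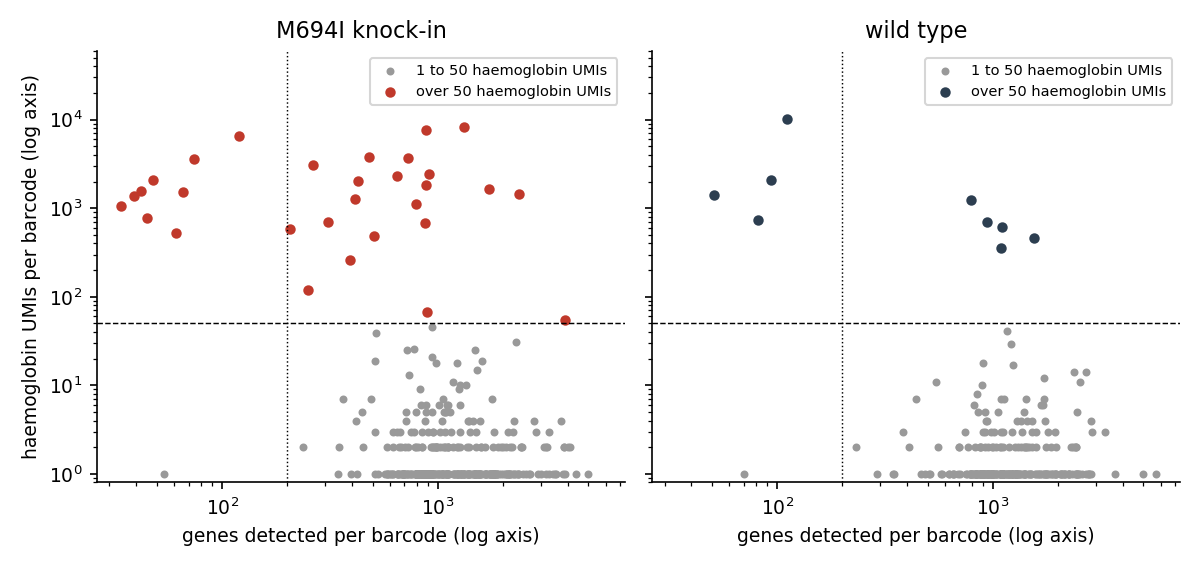
Haemoglobin UMIs (4 genes summed, log axis) against genes detected (log axis) for every barcode with at least 1 haemoglobin UMI, knock-in library left and wild-type library right. The dashed line marks 50 haemoglobin UMIs and the dotted line 200 genes. Above the dashed line both libraries show a group with under 200 genes (9 knock-in and 4 wild-type barcodes) and a group with more (21 knock-in and 5 wild-type barcodes).

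These barcodes were of more than 1 kind. In the group with under 200 genes, 9 knock-in barcodes had 34 to 120 genes and a median of 95.8% of their UMIs from haemoglobin, and 4 wild-type barcodes had 51 to 111 genes and a median of 94.96%. In the group with at least 200 genes, 21 knock-in barcodes had 207 to 3873 genes and a median haemoglobin share of 55.8%, and 5 wild-type barcodes had 790 to 1548 genes and a median of 14.98%. The knock-in share exceeded the wild-type share 2.61-fold (0.729 to 11.6) for the first group and 4.88-fold (1.79 to 16.6) for the second. The interval for the first group includes 1.

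In the group with at least 200 genes, barcodes with at least 3 erythroid markers were found mainly in the knock-in library. Of the 11 erythroid markers measured, which include Alas2, Slc4a1, Klf1 and Ermap, at least 3 had a UMI in 16 of the 21 knock-in barcodes and in 1 of the 5 wild-type barcodes, an 18.6-fold difference in share of all barcodes (2.89 to 779). The interval is wide because the wild-type number is 1. At least 2 of the markers had a UMI in 17 of the 21 knock-in and 4 of the 5 wild-type barcodes. The contrast in proportion within this group thus depends on the limit of 3. Outside this group, 1 wild-type barcode with 81 genes carried 4 of the markers, and no knock-in barcode with under 200 genes carried 3. The fold difference thus also depends on the limit of 200 genes. Klf1 was present in 5 knock-in and 0 wild-type haemoglobin-rich barcodes, Ermap in 11 knock-in and 0 wild-type ones, and Slc4a1 in 18 knock-in and 3 wild-type ones. Alas2 was the most regular, in 27 of 30 knock-in and 9 of 9 wild-type barcodes. At the depths of these 9 wild-type barcodes, a count of 0 for Klf1 and Ermap does not show that the genes were off.

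Markers of other cell types were present in some of the haemoglobin-rich barcodes. At least 2 UMIs of B cell, T cell, NK cell or macrophage markers were found in 7 of 30 knock-in and 4 of 9 wild-type barcodes. B cell markers had 42 UMIs (356 CPM) in the knock-in haemoglobin-rich barcodes and 31 UMIs (951 CPM) in the wild-type ones, against 3141 CPM in the other knock-in and 2841 CPM in the other wild-type barcodes. Macrophage markers had 25 UMIs in the knock-in haemoglobin-rich barcodes, of which 14 were in 1 barcode, and 0 in the wild-type ones; none of the 8 monocyte markers had a UMI in either. Without the barcodes that carried such markers, 23 knock-in and 5 wild-type haemoglobin-rich barcodes were left, a 5.34-fold difference in share (1.99 to 18.0). With at least 200 genes as well, there were 14 knock-in barcodes and 1 wild-type barcode. Scrublet called none of the 20 knock-in and 5 wild-type haemoglobin-rich barcodes within the quality limits a doublet, the others were not scored, and whether the marker-bearing ones hold more than 1 cell was not tested.

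Of the 20 knock-in and 5 wild-type haemoglobin-rich barcodes that passed the quality limits, 16 knock-in and 2 wild-type ones fell in a cluster led by the cell cycle genes Pbk, Esco2, Pclaf, Hmmr and Iqgap3, although the haemoglobin genes were left out of the clustering. The cluster also held 119 knock-in and 47 wild-type cells with 50 haemoglobin UMIs or fewer and was given no cell type name. Among the marker lists the erythroid one scored highest in this cluster and the B cell one second. However, 0 of the erythroid markers were detected in at least 10% of its cells. Mki67, a marker of cycling cells, had a UMI in 12 of 30 knock-in and 0 of 9 wild-type haemoglobin-rich barcodes. The rest were placed among B-like cells (2 knock-in, 2 wild-type), T-like cells (0 knock-in, 1 wild-type) and macrophage-like cells (2 knock-in, 0 wild-type).

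1 knock-in barcode just above the limit was unlike the others. It held 16464 UMIs and 3873 genes, and all 55 of its haemoglobin UMIs were Hbb-bt. It carried 2 UMIs of Car2, 1 of Hemgn and none of Alas2, Slc4a1, Klf1 or Ermap. It also carried 9 UMIs of NK cell markers, all those seen in knock-in haemoglobin-rich barcodes and all of them from 1 of the 7 markers, Nkg7; the part this plays in its Car2 and Hbb-bt was not tested.

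**Figure D3:**
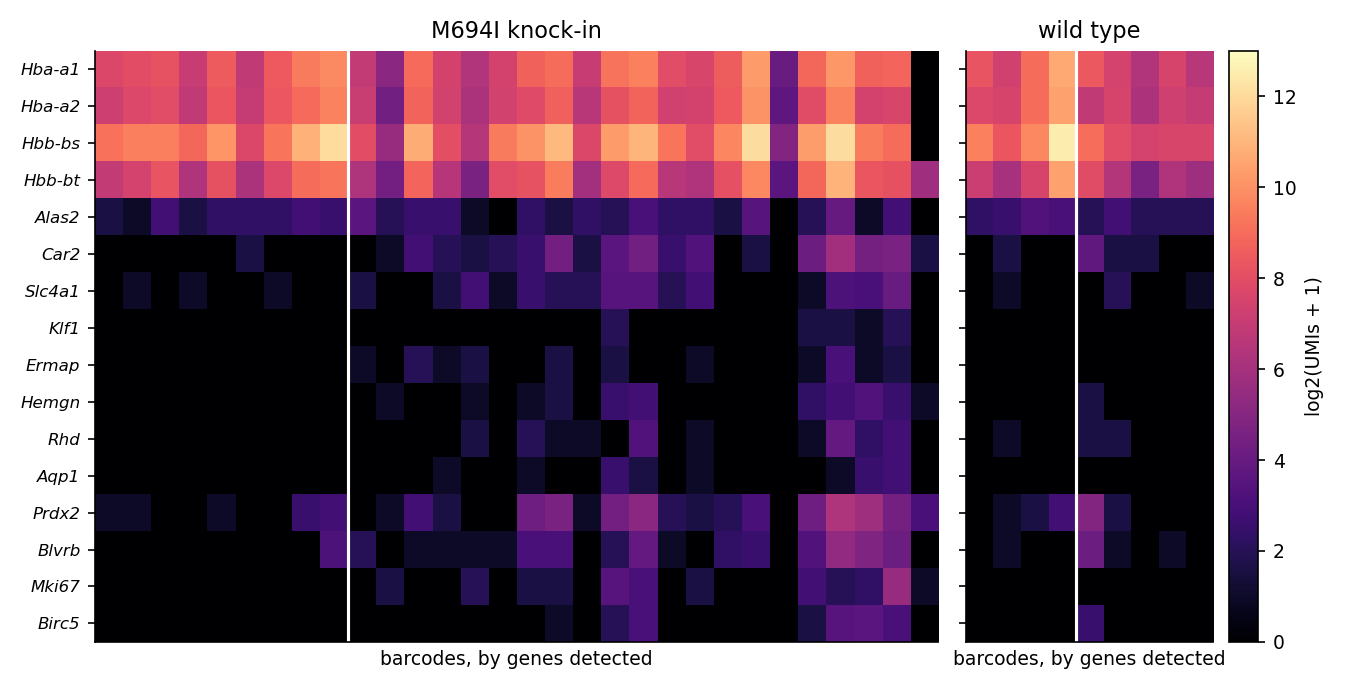
UMIs of 16 genes, as log2(UMIs + 1), in each of the 30 knock-in (left) and 9 wild-type (right) haemoglobin-rich barcodes; genes run down and barcodes across, ordered by the number of genes detected. The white line separates barcodes with under 200 genes (left of it) from the rest. Globin genes and Alas2 run through nearly all columns, whereas Slc4a1, Rhd and Prdx2 concentrate in knock-in barcodes with more genes, and the rightmost knock-in column, with the most genes, has no haemoglobin UMI other than Hbb-bt.

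Other genes of red cell development were described from a list of 50 erythroid genes, of which 49 were in the files and 37 had at least 20 UMIs. Of these, 11 were higher in the knock-in library by the limit above and 0 lower, against 2.81% and 2.6% of all 13440 genes, with a median log2 ratio of 0.32. Outside the haemoglobin-rich barcodes 2 of 29 were higher (Alad and Icam4), against 2.64% of 13418 genes, with a median of 0.07. Among the largest ratios were those of Aqp1 and Kel (22 UMIs each in the knock-in library and 1 each in the wild-type library, a log2 ratio of 4.84 with an interval of 2.21 to 10.2) and Tspo2. Aqp1 encodes the water channel of the red cell membrane and Kel the Kell blood group protein. Tspo2, which encodes an erythroid relative of the translocator protein, had 22 UMIs in the knock-in library and 3 in the wild-type library, a log2 ratio of 3.26 (1.52 to 5.64).

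Counts by role are to be read against the 2.81% of all genes called higher and 2.6% called lower over all barcodes. Of 9 membrane and cytoskeleton genes tested 7 were higher in the knock-in library, with a median log2 ratio of 2.97, and of 9 haem synthesis genes 1 (Alad, which encodes the second enzyme of the pathway, with 422 knock-in and 240 wild-type UMIs), with a median of 0.32. Of 5 erythroid transcription factors only 1 had enough UMIs, and it was not called. Among 6 embryonic and other globin genes none had enough UMIs to be counted; Hbb-bh1, an embryonic beta-like globin, had 6 UMIs in the knock-in library and 1 in the wild-type library. Of 6 megakaryocyte and platelet genes 0 were higher and 1 (Vwf, 6 knock-in and 19 wild-type UMIs) was lower. Of 12 red pulp macrophage genes 2 (C1qb and Cd163) were higher, with a median of 0.51. Of 12 cell cycle genes 7 were higher over all barcodes and 6 outside the haemoglobin-rich ones, with medians of 1.09 and 1.02, against 2.81% and 2.64% of all genes called higher in these sets of barcodes.

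Among the erythroid list the most UMIs in haemoglobin-rich barcodes belonged to genes that include Prdx2, Blvrb and Mkrn1. Prdx2, which encodes a peroxiredoxin abundant in red cells, had 311 UMIs in 22 of the knock-in and 39 UMIs in 5 of the wild-type haemoglobin-rich barcodes, and was also broadly expressed elsewhere. Blvrb, biliverdin reductase B, had 149 UMIs in the knock-in and 20 in the wild-type ones. Mkrn1, a ubiquitin ligase, had 89 UMIs in the knock-in and 25 in the wild-type ones. Both genes were broadly expressed elsewhere too. Haemoglobin-rich barcodes held 5.10% of knock-in and 0.80% of wild-type Blvrb UMIs, and 2.25% of knock-in and 0.49% of wild-type Mkrn1 UMIs.

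Genes outside the erythroid list that were enriched in haemoglobin-rich barcodes of both libraries are given as a description, since those barcodes were chosen by haemoglobin. Of 382 genes with enough UMIs, the 15 most enriched were Tmcc2, Trim10, Ube2l6, Mgst3, Rsad2, Isg20, Smox, Rrm2, Birc5, Tfdp2, Ift140, Tent5c, Creg1, Dcaf12 and Slc25a39. Ube2l6, a ubiquitin-conjugating enzyme also used for ISG15, was the most widespread of the leading ones, with 61 UMIs in 23 of 30 knock-in and 19 UMIs in 7 of 9 wild-type barcodes, at 67.9 times the CPM of the other barcodes in the knock-in library and 96.9 times in the wild-type library. Trim10, a RING finger gene known from erythroid cells, had 26 UMIs in 15 knock-in and 5 UMIs in 3 wild-type haemoglobin-rich barcodes and 1 knock-in and 4 wild-type UMIs elsewhere. Tmcc2 had 51 UMIs in 12 knock-in barcodes and 11 UMIs in 1 wild-type barcode, so the wild-type value rests on that barcode. The cell division genes Rrm2 and Birc5, which are also in the cell cycle list, likewise came from 1 wild-type barcode each, against 5 and 7 knock-in barcodes. The same held for Mgst3 and Ift140, with 1 wild-type barcode each against 10 and 6 knock-in barcodes.

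The low level of haemoglobin in all other barcodes also differed between the libraries. Barcodes with 50 haemoglobin UMIs or fewer had 927 haemoglobin UMIs (37.0 CPM) in the knock-in library and 611 (18.6 CPM) in the wild-type library, a log2 ratio of 0.99 (0.84 to 1.14). The ratio was 1.18 for Hba-a1, 1.32 for Hba-a2, 1.00 for Hbb-bs and 0.77 for Hbb-bt. By the limit above, 3 of the 6 members with enough UMIs in these barcodes were higher in the knock-in library, against 2.64% of all genes. Knock-in cells were shallower, with a median of 1992.5 UMIs per barcode against 2493 in the wild-type library, and a CPM depends on that depth; counted per barcode the log2 ratio was 0.82, and with every barcode thinned to 1000 UMIs it was 0.83 (0.57 to 1.09), over 8326 knock-in and 10044 wild-type barcodes. How much of this low level is free RNA from lysed red cells was not tested.

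B-like and T-like cells were the 2 largest classes in both libraries, as named from marker genes. By class, the haemoglobin sum was 45.2 CPM in knock-in and 19.2 CPM in wild-type B-like cells (log2 ratio 1.24, 1.04 to 1.43), from 5464 and 6416 cells. In T-like cells it was 9.55 CPM in the knock-in and 7.19 CPM in the wild-type library (0.41, -0.21 to 1.03), where 1 wild-type cell held 18 of the 46 UMIs, and in NK-like cells 13.9 CPM in the knock-in and 8.43 CPM in the wild-type library (0.72, -0.78 to 2.23). In dendritic-like cells it was 58.4 CPM in the knock-in and 37.9 CPM in the wild-type library (0.62, -0.04 to 1.29). In monocyte-like cells it was 119 CPM in the knock-in and 20.2 CPM in the wild-type library (2.55, 1.75 to 3.44), but 1 knock-in cell held 25 of the 68 UMIs. Over cells with 10 haemoglobin UMIs or fewer the log2 ratio was 1.29 in monocyte-like, 1.13 in T-like, 1.23 in dendritic-like and 0.96 in B-like cells. At a mitochondrial limit of 5% it was 1.83 in B-like cells, and with called doublets kept it was 0.08 in T-like cells. Of the 5 classes with at least 100 cells per library, all had a ratio above 0, and the T-like, NK-like and dendritic-like intervals included 0.

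Classes with fewer cells in a library were given no ratio. Macrophage-like cells had 115 CPM of haemoglobin in the knock-in (31 UMIs) and 86.4 CPM in the wild-type library (23 UMIs, 14 in 1 cell). Neutrophil-like cells had 74.5 CPM in the knock-in (10 UMIs, 7 in 1 cell) and 121 CPM in the wild-type library (23 UMIs, 11 in 1 cell). Plasma-cell-like cells had 39.9 CPM in the knock-in library (69 UMIs, 31 in 1 cell), and 5.44 CPM in the wild-type library from 2 UMIs. The cell cycle cluster had 23.6 CPM in the knock-in and 20.4 CPM in the wild-type library. In both libraries T-like and NK-like cells were among the lowest classes, and macrophage-like and neutrophil-like cells were among the highest. The macrophage-like and neutrophil-like levels rest on few UMIs, so their place in this order is uncertain.

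The make-up of the haemoglobin UMIs was not the same in every class. In haemoglobin-rich barcodes Hbb-bt gave 15.1% of the haemoglobin UMIs in the knock-in library and 12.6% in the wild-type library. Over all other classes together (T-, NK-, monocyte-, dendritic-, macrophage-, neutrophil- and plasma-cell-like cells and the smaller unnamed clusters) it gave 16.5% (12.4 to 21.3) in the knock-in and 19.1% (13.4 to 26.0) in the wild-type library. In B-like cells it gave 41.3% (37.2 to 45.4) in the knock-in and 49.0% (43.7 to 54.3) in the wild-type library, and in the cell cycle cluster 25 of 29 UMIs in the knock-in and 11 of 12 in the wild-type library. Set against Hbb-bs, Hbb-bt had 1.48 UMIs per Hbb-bs UMI in knock-in and 1.64 in wild-type B-like cells, against 0.284 in knock-in and 0.247 in wild-type haemoglobin-rich barcodes. The pattern was thus present in both libraries.

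**Figure D4:**
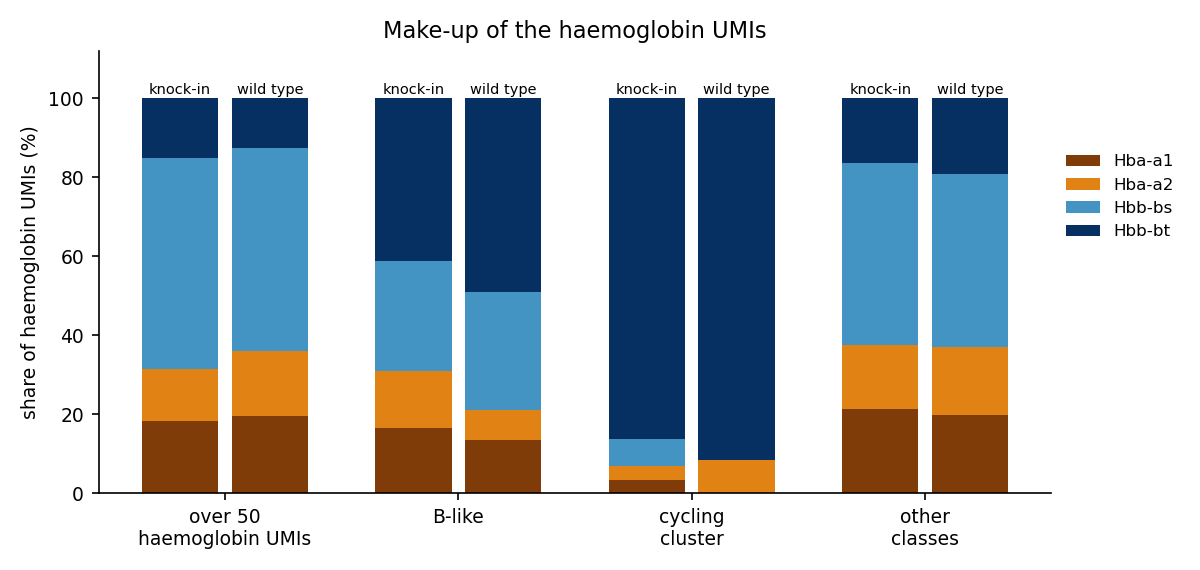
Share of the haemoglobin UMIs (%) that came from each of the 4 globin genes, in haemoglobin-rich barcodes, B-like cells, the cell cycle cluster and all other classes together; the knock-in bar is left of the wild-type bar in each pair. Hbb-bt (darkest blue) takes 41.3% and 49.0% in B-like cells against 16.5% and 19.1% in the other classes, knock-in first; the cell cycle bars rest on 29 and 12 UMIs.

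Many of these B-like cells held Hbb-bt and no other globin UMI. Among B-like cells with any haemoglobin UMI, 119 of 224 in the knock-in and 93 of 173 in the wild-type library held Hbb-bt alone, against 12 of 92 in the knock-in and 11 of 58 in the wild-type library over the other classes. The counts per cell were low, at most 6 Hbb-bt UMIs in a knock-in and 17 in a wild-type cell of this kind. A UMI of Hbb-bt was found in 2.42% of knock-in and 1.61% of wild-type B-like cells, against 0.448% of knock-in and 0.365% of wild-type T-like cells. Median depth was 1802 UMIs in knock-in and 2335.5 in wild-type B-like cells, and 2467.5 in knock-in and 3028 in wild-type T-like cells, so B-like cells were the shallower. After thinning to 1000 UMIs the share was 1.41% (1.11 to 1.77) in knock-in and 0.77% (0.57 to 1.02) in wild-type B-like cells, and 0.35% in knock-in and 0.105% in wild-type T-like cells.

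Within the 6 largest B-like clusters the share was highest in 1, cluster 3 of the plot of Hbb-bt at equal depth, led by Akap12, Serinc5, Lynx1, Tifa, Cecr2, Il12a and Sox4. There Hbb-bt had a UMI in 45 of 844 knock-in cells (5.33%, 3.92 to 7.07) and 38 of 1146 wild-type cells (3.32%, 2.36 to 4.52), of which 42 knock-in and 37 wild-type cells held no other globin. Hbb-bs had a UMI in 7 of the same knock-in and 12 of the same wild-type cells. At equal depth the Hbb-bt share was 3.57% (2.40 to 5.08) in the knock-in and 1.49% (0.87 to 2.37) in the wild-type library. In the next highest large B-like cluster it was 1.46% (0.93 to 2.18) in the knock-in and 1.12% (0.60 to 1.91) in the wild-type library. In the wild-type library the intervals of these clusters overlapped, so their order at equal depth is uncertain there. With the near-identical coding sequence given above and no record of how shared reads were assigned, these UMIs are as the files assign them.

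**Figure D5:**
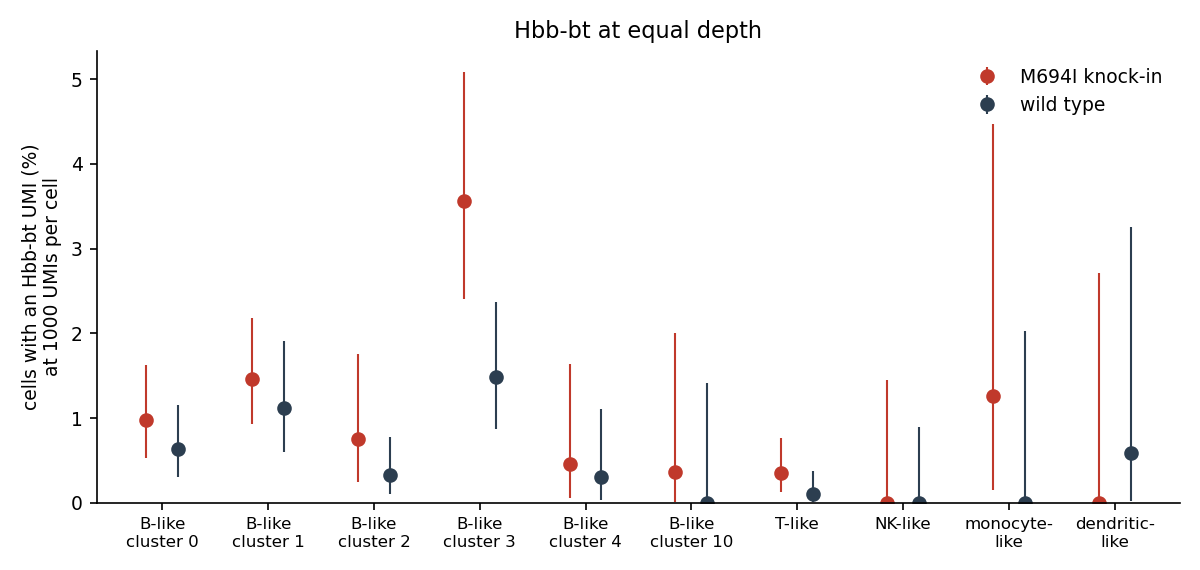
Share of cells (%) with at least 1 Hbb-bt UMI after thinning each cell to 1000 UMIs, in the 6 largest B-like clusters and 4 other classes, knock-in (red, left) and wild type (dark blue, right), with exact binomial 95% intervals. Cluster 3 is at 3.57% in the knock-in and 1.49% in the wild-type library; T-like cells are at 0.35% in the knock-in and 0.105% in the wild-type library.

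The remaining members were at or near 0 in most classes outside the haemoglobin-rich barcodes. Alas2 had 3 UMIs in 1 knock-in monocyte-like cell and 2 in B-like cells of the knock-in library, and 1 in a B-like and 1 in a neutrophil-like cell of the wild-type library. Slc4a1 had 2 UMIs in 1 knock-in B-like cell and 0 in the wild-type library. Klf1 was seen in B-like cells, with 5 UMIs in the knock-in and 2 in the wild-type library. Ermap had 4 UMIs in knock-in and 13 in wild-type B-like cells, a log2 ratio of -1.14 (-3.22 to 0.55).

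Car2 had 1790 CPM in knock-in and 583 CPM (351 to 910) in wild-type haemoglobin-rich barcodes. The wild-type value came from 19 UMIs, 13 of them in 1 barcode. Among the cell classes, from which haemoglobin-rich barcodes were left out, Car2 was highest in NK-like cells of both libraries. There it had 439 CPM and a UMI in 53.6% of cells in the knock-in library, and 354 CPM and a UMI in 48.9% of cells in the wild-type library, a log2 ratio of 0.31 (0.09 to 0.54). At equal depth the shares were 25.3% in the knock-in and 27.7% in the wild-type library, the opposite order, so no difference in the share of cells is read from them. B-like cells came far lower, at 15.7 CPM in the knock-in and 8.87 CPM in the wild-type library (0.83, 0.52 to 1.13), and T-like cells at 11.8 CPM in the knock-in and 8.90 CPM in the wild-type library. Neutrophil-like cells had no Car2 UMI in either library.

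Across 10 groups of cells (the haemoglobin-rich barcodes, the named classes and the cell cycle cluster) in both libraries, which gives 20 points, the genes whose level ran most like the haemoglobin sum among 10747 genes were Mpp1, which encodes the membrane protein p55 of red cells (Spearman's rho 0.76), the interferon-inducible Rsad2 (0.75), the cell cycle transcription factor E2f2 (0.73), the ATP synthase inhibitor Atpif1 (0.71) and Gpx1 (0.70). These points share libraries and depth, and the values are a description. The haemoglobin-rich points were also chosen by haemoglobin, so any gene enriched in them gains rho from that choice, Alas2 and Slc4a1 included. Among the members, rho was 0.62 for Alas2, 0.49 for Slc4a1, 0.28 for Ermap, 0.16 for Klf1 and -0.04 for Car2. Gpx1, glutathione peroxidase 1, reached 3258 CPM in knock-in and 736 CPM in wild-type haemoglobin-rich barcodes, against 233 CPM in knock-in and 178 CPM in wild-type B-like cells.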

How the data were processed

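The deposited files hold raw UMI counts per gene and barcode. Per the file headers, the authors made them with Cell Ranger 6.1.2, whereas version 7.1.0 stands in the submitters' processing notes beside Seurat 5.0.3 and mm10. Neither the choice of barcodes nor the gene annotation is given in the sources used here; gene positions were taken from GENCODE for GRCm38, which is mm10. Libraries targeted 10000 cells, per the labels' protocols, and p-values are absent because each genotype has 1 library. The members and lists were chosen with earlier results of these data known.

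UMIs were summed per library with no filter on barcodes and scaled to CPM. Intervals at 95% are exact Poisson (levels), Clopper-Pearson (shares) and conditional binomial (ratios); UMIs cover counting error only. A library at 0 was set to 3 counts, and no ratio was given when both were at or under it. For classes, cells with at least 500 UMIs, 200 genes and under 10% mitochondrial UMIs were kept, doublets called by Scrublet were removed (174 knock-in, 222 wild-type), and both libraries were clustered together without haemoglobin genes (scanpy 1.11.5, leidenalg 0.10.2, resolution 1, 31 clusters, of which 5 stayed unnamed); cells over 50 haemoglobin UMIs were then left out of class levels. Names rest on rebuilt clusters and marker lists. Genes were named by rule: all members, the erythroid genes with the 4 largest ratios and the 6 with most UMIs in haemoglobin-rich barcodes, the 15 other genes most enriched there, and the 5 most like the haemoglobin sum; cluster leaders, list genes called in small numbers and single barcodes were named after their values were seen. Some genes that the rule names are not reported here. On simulated counts of 10751 genes with 200 changed, 96% of the ratio intervals held the true value. These counts were drawn with Poisson error alone, the error that the intervals assume. The simulation therefore cannot check the intervals of genes whose UMIs come from a few barcodes, such as the haemoglobin genes. Mefv had 79 knock-in and 166 wild-type UMIs. Counts per gene do not give the sequence of the allele, so these values do not check the genotype.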

Additional observations from a re-analysis of the deposited data

How the results depend on the processing

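The haemoglobin ratio over all barcodes (2.17 on the log2 scale) was 3.84 over quality-filtered cells, 3.14 without the top barcode of each library and 2.23 with a total that left out immunoglobulin and haemoglobin genes; the first setting leaves out, and the second removes, the wild-type barcode with 55.3% of that library's haemoglobin UMIs. The ratio outside the haemoglobin-rich barcodes (0.99) was 0.79 at 20 haemoglobin UMIs or fewer, 0.82 at 10 or fewer, 0.82 per barcode and 0.83 at equal depth, with the direction kept in each; without Hbb-bt, an alternative added after the data were seen, it was 1.12. The share of haemoglobin-rich barcodes kept a log2 ratio of 1.85 to 2.18 over all settings tried. The number of members past the limit went to 4, against 7, without the haemoglobin-rich barcodes (Hba-a1, Hba-a2, Hbb-bs and, on 5 knock-in and 2 wild-type UMIs, Alas2). The minimum of 20 UMIs was not applied anew to the barcodes left. Where it was, the count was 3 of 6, against 2.64% of 13418 genes called higher. Klf1, not counted for its few UMIs, had a log2 ratio of 1.12 there on 5 knock-in and 3 wild-type UMIs. Ermap was at -0.35 (-1.72 to 0.94) there, an interval that includes 0. The erythroid list count was 19, against 11, with no minimum of UMIs. More genes of the list enter without the minimum, some of them at a few UMIs. The share of all genes called without it is not given here, so the rise to 19 is not read as a result about the list. Leaving out the 27 shared barcodes, also added after the data were seen, moved no summary past its limit. No paired analysis was possible because each genotype has 1 library. Counts of a few UMIs limit Klf1, Ermap and wild-type Slc4a1, and the 9 wild-type haemoglobin-rich barcodes limit every statement on their content.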
